A study of Mus musculus with 2 samples.

Results

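The genes described here are 9 members of the chloride-handling machinery of cells, chosen by symbol. They are 4 cation-chloride cotransporters (Slc12a5, Slc12a4, Slc12a7 and Slc12a2), 3 WNK kinases (Wnk1, Wnk2 and Wnk3) and the kinases Stk39 and Oxsr1, out of 55536 annotated genes. Each symbol was read from the transcript names and linked to the gene tables by its gene identifier, and all 9 were found. Total RNA was measured from female mice at an age of 25 days, in the left cerebral cortex. The mice carry the strain label B6CASTF1/J, a first-generation cross of the C57BL/6 and CAST strains, and no agent, transgene or other treatment is labelled. The 2 libraries, replicates 1 and 2, form 1 group, so every comparison is within a library or between the 2 libraries. The labels number the animals separately but give both the same donor identifier, so the spread between the libraries may be smaller than a spread between animals. The starting amount was 300 ng of RNA, to which synthetic RNAs, the ERCC spike-ins, were added.

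Neurons move chloride with transporters that couple it to potassium or to sodium and potassium. The potassium-chloride cotransporters (KCCs) carry chloride out of the cell, and the sodium-potassium-chloride cotransporter NKCC1 carries it in. A low chloride level in the cell lets GABA inhibit mature neurons, and in the cortex that state is known to come with the rise of KCC2, the product of Slc12a5, after birth. WNK kinases sense chloride and activate the kinases SPAK (Stk39) and OSR1 (Oxsr1), whose phosphorylation switches NKCC1 on and the KCCs off.

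The total of expected counts was 31301126 in replicate 1 and 27182336 in replicate 2. An expected count is the estimated number of reads of a gene, and it need not be whole because reads that match several genes are divided. Levels are given in TPM, transcripts per 1000000, which divides by length and so allows genes to be compared. A gene at 0 counts could be as high as 0.0962 CPM (counts per 1000000) in replicate 1 and 0.111 CPM in replicate 2, the level of 3 counts. Excitatory neuron markers of the cortex, including Tbr1 and Slc17a7, were detected (4 of 4). Marker lists that differed between the libraries are given beside the comparison of the libraries.

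All 9 genes were detected, which here means 1 TPM or more in each library, where 58.7% of 22015 protein-coding genes were. The genes were chosen with their levels known, so this is a description. Their order by mean alignment-based TPM was Slc12a5, Wnk1, Wnk2, Stk39, Wnk3, Slc12a2, Oxsr1, Slc12a4 and Slc12a7. Neighbours in this order did not overlap between libraries, except that Wnk3 overlapped with Slc12a2 and Slc12a2 with Oxsr1. By the FASTQ-based mean, Slc12a2 stood above Wnk3, at 27.5 against 26.1 TPM. These 2 genes overlapped there too, while Slc12a2 and Oxsr1 did not. The median of 12933 detected protein-coding genes was 16.0 TPM, which lies between Slc12a2 and Oxsr1. The expected counts of all 9 genes were whole numbers in both libraries, within 0.005, as were those of 83.4% of the 17906 genes with at least 10 counts in both libraries.

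**Figure D1:**
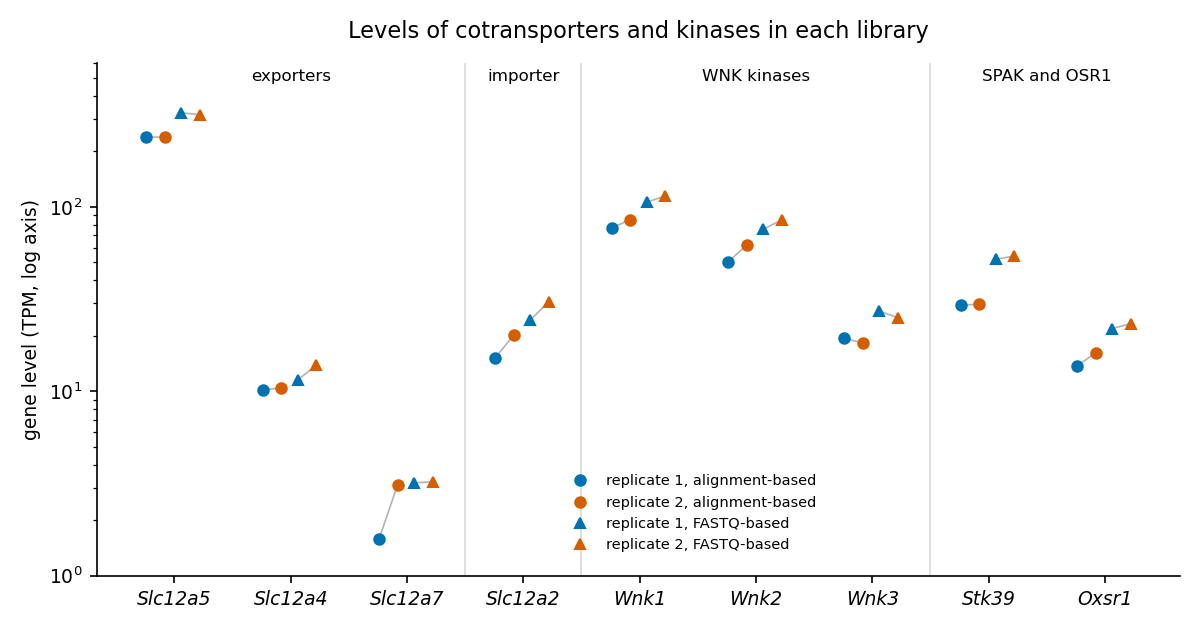
Level of each gene in TPM on a log axis, with replicate 1 left of replicate 2 in each pair of points. Circles are the alignment-based values and triangles the FASTQ-based values, without error bars since each point is 1 library. Slc12a5 stands highest at 238 and 239 TPM by alignment, and Slc12a7 lowest at 1.58 and 3.12 TPM.

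Slc12a5 encodes KCC2, the chloride exporter of neurons (mm10 chr2:164960802-164999731, plus strand). It had 238.2 TPM in replicate 1 and 238.9 TPM in replicate 2, from 20817 and 17508 counts. The mean of 239 ± 0.48 TPM (SD, n = 2) was above that of 98.2% of detected protein-coding genes. The intervals of TPM that the authors deposited ran from 225 to 238 TPM in replicate 1 and from 225 to 239 TPM in replicate 2, so the libraries were closer to each other than the width of either interval.

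Slc12a4 encodes KCC1, an exporter found in many tissues and known for regulating cell volume (chr8:105943590-105966097, minus strand). Its level was 10.2 TPM in replicate 1 and 10.4 TPM in replicate 2, from 610 and 565 counts. The level of Slc12a5 was 23.2 times as high, and the log2 ratio of 4.54 ± 0.02 varied little between libraries.

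Slc12a7 encodes KCC4, an exporter known from kidney and inner ear (chr13:73733094-73816754, plus strand). It had 1.58 TPM in replicate 1 and 3.12 TPM in replicate 2, from only 121 and 137 counts. Its point value in replicate 1 lay below the authors' own interval for it, 1.72 to 3.56 TPM, and the FASTQ-based level was 3.19 and 3.23 TPM. The TPM values of its libraries thus differed more than its counts did, and it stayed the lowest of the 9 genes by both quantifications.

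Slc12a2 encodes NKCC1, the chloride importer, which neurons, glia and epithelia use. It had 15.2 TPM in replicate 1 and 20.3 TPM in replicate 2, from 2005 and 2246 counts. Its mean of 17.7 ± 3.56 TPM stood at the percentile 53.3 of detected protein-coding genes, close to the middle of the transcriptome.

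The exporter Slc12a5 was above the importer Slc12a2 in both libraries, 15.7-fold in replicate 1 and 11.8-fold in replicate 2. The mean log2 ratio was 3.76 ± 0.29 (SD, n = 2). With Slc12a4 and Slc12a7 added, the summed exporters reached 250 TPM in replicate 1 and 252 TPM in replicate 2, which was 16.4 and 12.5 times the importer (log2 3.84 ± 0.28). Slc12a5 held 95.3% of that sum in replicate 1 and 94.6% in replicate 2, while Slc12a4 held 4.10 ± 0.04% and Slc12a7 0.934 ± 0.43%. Nearly all of the summed level of these 3 exporters was thus Slc12a5, and other exporters of the family are not in the sum. These are gene levels, which include short and non-coding transcripts. Among them, the 231-codon transcript Slc12a5-208 held 24.2% of Slc12a5 in replicate 1 and 21.6% in replicate 2 by alignment.

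Slc12a4 and Slc12a7 were each below the importer. The log2 ratio to Slc12a2 was -0.77 ± 0.27 for Slc12a4 and -2.98 ± 0.40 for Slc12a7. Neither ratio changed sign between libraries or with the quantification.

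The ratio of Slc12a5 to Slc12a2 was higher in replicate 1, and there the Slc12a5 level differed little between the libraries while the Slc12a2 level was higher in replicate 2. The ratio of Slc12a7 to Slc12a2 ran the other way, -3.27 in replicate 1 and -2.70 in replicate 2 on the log2 scale by alignment, but -2.93 and -3.25 by the FASTQ-based table, on the few counts of Slc12a7. An exact sign-flip test of 2 libraries cannot give a p below 0.5, so none is given. In tissue RNA, fewer cells of a type and less RNA per cell cannot be told apart, and a ratio of levels over the tissue need not hold in any one cell type.

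**Figure D2:**
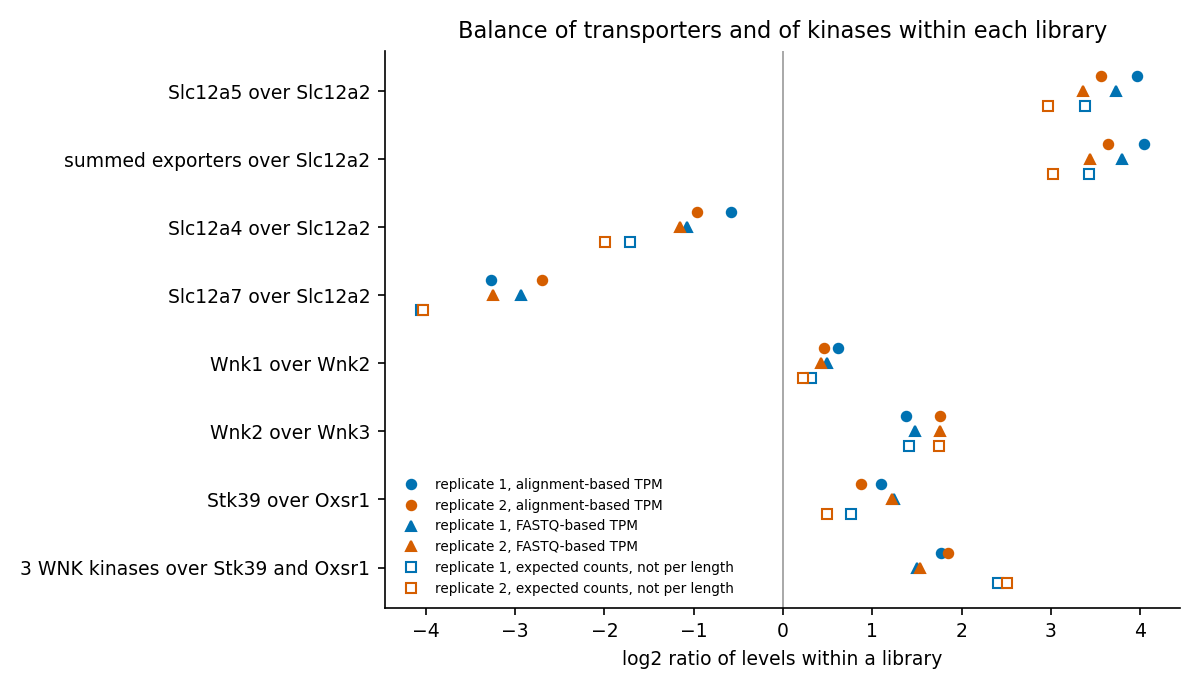
Log2 ratio of levels within a library, for transporters and for kinases. Blue marks replicate 1 and orange replicate 2, circles alignment-based TPM, triangles FASTQ-based TPM and open squares expected counts that are not corrected for length. Slc12a5 exceeds Slc12a2 in every setting, with mean log2 ratios of 3.76, 3.55 and 3.17.

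The coding sequences of the transporters were compared, since near-identical genes could share reads. Slc12a5 was 73.7% identical to Slc12a4 over 3178 aligned bases, 74.8% to Slc12a7 and 58.0% to Slc12a2. The longest exact run that the main transcript of Slc12a5 shared with one of these was 28 bases, with Slc12a4. For the kinases, Stk39 and Oxsr1 were 74.3% identical with a longest run of 15 bases, and Wnk1 and Wnk3 were 68.5% identical with a longest run of 23 bases.

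Wnk1 is the widely expressed WNK kinase, mutated in a hereditary form of human hypertension (chr6:119923969-120038672, minus strand). It had 76.8 TPM in replicate 1 and 85.1 TPM in replicate 2, from 7492 and 7088 counts. Its mean of 80.9 ± 5.82 TPM was above 90.6% of detected protein-coding genes.

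Wnk2 is a WNK kinase known mainly from brain (chr13:49036303-49148014, minus strand). Its level was 50.2 TPM in replicate 1 and 61.9 TPM in replicate 2, from 6047 and 6082 counts. Wnk1 exceeded it 1.53-fold in replicate 1 and 1.37-fold in replicate 2, a log2 ratio of 0.54 ± 0.11. By counts, which are not corrected for length, that log2 ratio was 0.26 ± 0.06. These ratios cover all transcripts of each gene. By alignment, coding transcripts held 70.88% of Wnk1 in replicate 1 and 68.65% in replicate 2, and 100% and 96.5% of Wnk2. The order of the 2 genes therefore need not hold for coding transcripts alone.

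Wnk3, known as a strong activator of NKCC1 and inhibitor of the KCCs, was the lowest of these kinases (chrX:151198078-151320152, plus strand). It had 19.3 TPM in replicate 1 and 18.3 TPM in replicate 2, from 2275 and 1812 counts. Wnk2 exceeded Wnk3 by a log2 ratio of 1.57 ± 0.27 and Wnk1 exceeded it by 2.10 ± 0.16. Of the summed TPM of the WNK kinases, 52.0 ± 0.70% fell to Wnk1, 35.9 ± 2.22% to Wnk2 and 12.1 ± 1.52% to Wnk3.

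Stk39 encodes SPAK, which phosphorylates the cotransporters directly (chr2:68210445-68472268, minus strand). It had 29.3 TPM in replicate 1 and 29.7 TPM in replicate 2, from 1875 and 1534 counts. Its relative Oxsr1, which encodes OSR1 (chr9:119238432-119322427, minus strand), had 13.7 TPM in replicate 1 and 16.2 TPM in replicate 2, from 1106 and 1093 counts. Stk39 exceeded Oxsr1 2.14-fold in replicate 1 and 1.83-fold in replicate 2, a log2 ratio of 0.99 ± 0.16. The size of this ratio moved with the measure, to 1.23 by the FASTQ-based TPM and 0.63 by counts, and its direction did not.

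In sum, the WNK kinases were more abundant than the kinases they activate. They summed to 146 TPM in replicate 1 and 165 TPM in replicate 2, and Stk39 and Oxsr1 to 43.0 and 45.8 TPM. The log2 ratio of the sums was 1.81 ± 0.06. This did not hold for each gene, since Wnk3 was below Stk39 in both libraries.

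The FASTQ-based quantification gave higher TPM for all 9 genes. The FASTQ-based level was between 1.23 times the alignment-based level, for Slc12a4, and 1.80 times, for Stk39, where the median detected gene was 1.54 times. Slc12a5 was at 1.34 times and Slc12a2 at 1.55 times, which lowered their log2 ratio to 3.55 ± 0.26.

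Between the libraries, the genes were compared on counts scaled to CPM with TMM factors, which correct for composition. None of the 8 genes with a mean of at least 5 CPM differed 2-fold, where 0.256% of 11721 genes at that level did, and none differed 1.5-fold, where 1.52% did. Slc12a7, at a mean of 4.46 CPM, was under that limit. A count of 0 of 8 is near these backgrounds and is not a result about these genes. Of the 9 genes, 3 were higher in replicate 1 and 6 in replicate 2, and 60.0% of the tested genes were higher in replicate 1.

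Slc12a2 had 65.1 CPM in replicate 1 and 81.9 CPM in replicate 2. The ratio of replicate 1 to replicate 2 was 0.795, with an exact 95% interval of 0.748 to 0.845. A difference of this size or larger was uncommon, since 92.9% of the tested genes had a smaller one. Slc12a7 had a similar ratio of 0.787 on few counts, with an interval of 0.611 to 1.01 that covers no difference.

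Among the kinases the differences were smaller. The log2 ratio of replicate 1 to replicate 2 was -0.18 for Wnk2, -0.15 for Oxsr1 and -0.09 for Wnk1, and it was 0.16 for Wnk3 and 0.12 for Stk39. All of them lay within 0.28, the size that 90% of the tested genes do not exceed. Slc12a5 differed by 0.08 and Slc12a4 by -0.06.

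For 7 of the 8 genes at 5 CPM or more the 95% interval of the ratio did not include 1, the exception being Slc12a4, where 37.5% of the 11721 genes had this. Intervals narrow as counts rise, and the genes were not matched on counts, so nothing is read from the difference. These intervals cover counting error only, in reads without molecular identifiers, and the variation between animals of 1 group was not measured beyond these libraries. No p-value was computed.

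Cell type markers also differed between the libraries. Markers of myelinating oligodendrocytes (Mog, Mbp, Mobp and Mag) summed to 861 TPM in replicate 1 and 1339 TPM in replicate 2, and 4 of 4 were lower in replicate 1, as Slc12a2 was. Choroid plexus markers, from an epithelium that also expresses Slc12a2, summed to 102 TPM in replicate 1 and 7.17 TPM in replicate 2. Most of these sums was Ttr alone, with 96.0 TPM in replicate 1 and 4.79 TPM in replicate 2. Of these markers 7 of 7 were higher in replicate 1, but 2 of 7 were detected and 1 of 7 reached a mean of 5 CPM. Kcne2 was at 0 in replicate 2. Striatal markers summed to 378 and 255 TPM, with 6 of 6 higher in replicate 1, and inhibitory neuron markers to 511 and 454 TPM, with 5 of 5 higher in replicate 1. Astrocyte markers summed to 353 and 360 TPM, with 3 of 5 higher in replicate 1 by CPM. Oligodendrocyte precursor markers summed to 58.1 and 62.3 TPM, with 2 of 4 higher in replicate 1 by CPM. Excitatory neuron markers summed to 1763 TPM in replicate 1 and 1862 TPM in replicate 2, microglia markers to 86.7 and 92.2 TPM, and mural markers to 63.1 and 66.8 TPM. In each of these 3 lists, 3 of 4 markers were lower in replicate 1, as Slc12a2 was. Endothelial markers summed to 92.5 and 88.5 TPM, with 2 of 4 lower in replicate 1. The part of these cell types in the differences of Slc12a2 and of the kinases was not tested.

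**Figure D3:**
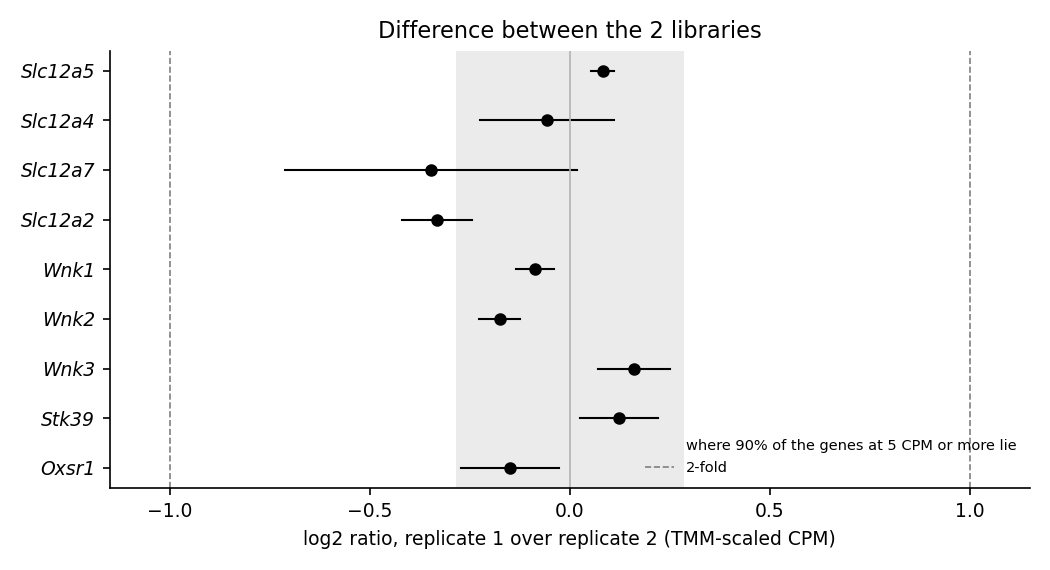
Log2 ratio of replicate 1 to replicate 2 for each gene, from TMM-scaled CPM, with the exact 95% interval of counting error as a line. The grey band holds 90% of the genes at 5 CPM or more, and the dashed lines mark 2-fold. Slc12a7 and Slc12a2 lie left of the band at -0.35 and -0.33, and the other genes lie inside it.

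The 9 genes have 83 annotated transcripts, and both quantifications divide the reads among them. The transcript with the highest share was the same in both quantifications for 8 of the 9 genes, where 75.4% of 11708 detected protein-coding genes with several transcripts had this. Between the libraries it was the same for 9 of 9 by alignment, against 88.0% of genes, and for 8 of 9 by the FASTQ-based table, against 82.7%. By alignment a single transcript held at least 50% of the gene in both libraries for 4 of 9, against 61.3% of genes. These were Slc12a4, Slc12a2, Stk39 and Oxsr1, and by the FASTQ-based table they were Slc12a5, Slc12a2, Stk39 and Oxsr1. Each of these counts lay within 2 genes of what its background share gives for 9 genes, so they are not a result about this set.

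**Figure D4:**
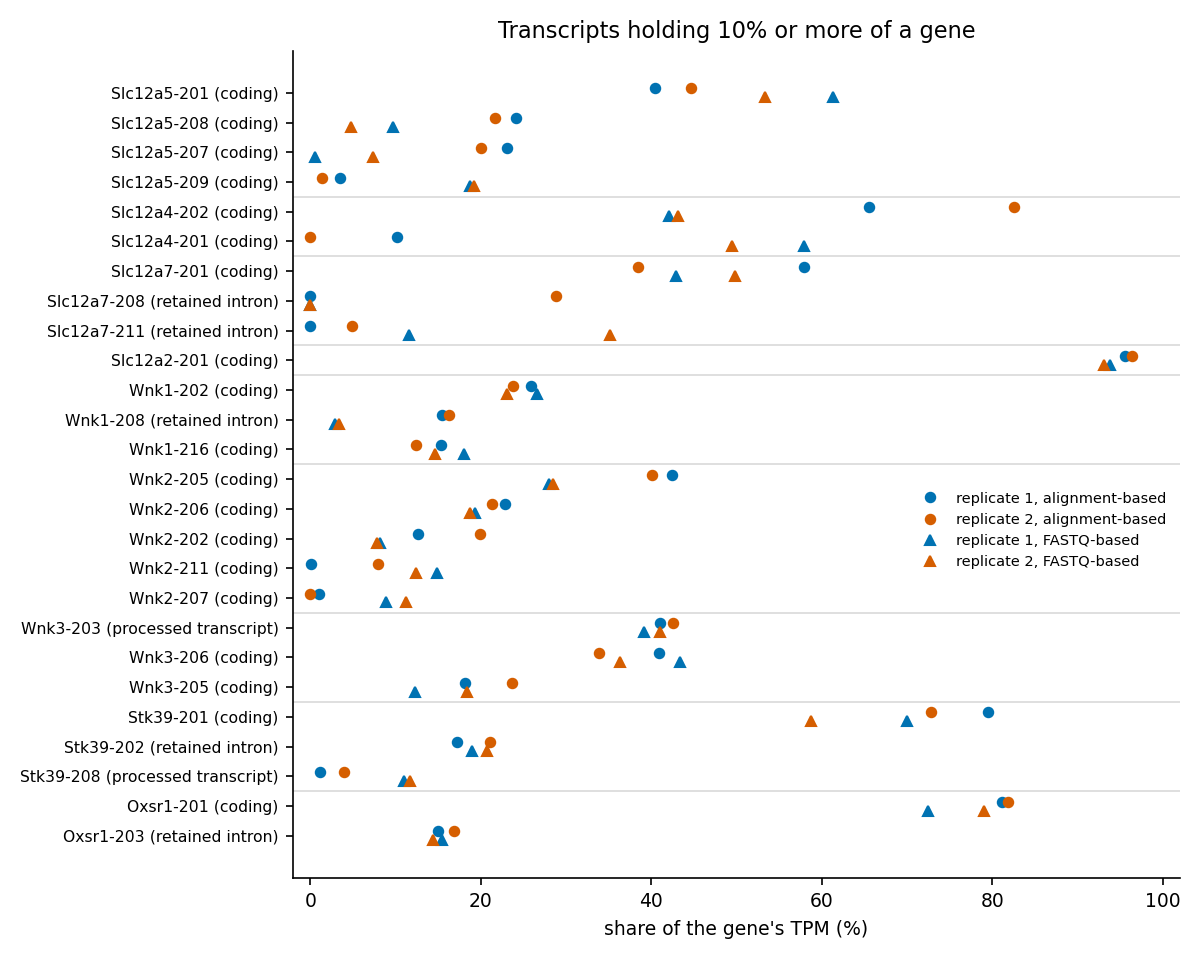
Share of a gene's TPM held by each transcript with 10% or more in either quantification. Blue marks replicate 1 and orange replicate 2, circles the alignment-based and triangles the FASTQ-based shares, with the annotated class in brackets. Slc12a2-201 holds 96.0% of its gene by alignment, while Slc12a5, Wnk1, Wnk2 and Wnk3 are divided among several transcripts.

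Slc12a5 is known to be read from a pair of alternative first exons, which give the forms KCC2a and KCC2b with different N-terminal ends. KCC2b is the principal form of the mature cortex. In the annotation, 4 of its 10 transcripts began at the upstream first exon, the position of the KCC2a exon, and 4 at the downstream one, that of KCC2b, 7159 bases further on. The upstream exon of Slc12a5-209 lies at chr2:164960824-164961003. Its coding part is shown because it is what marks the upstream forms, with the start codon in capitals (mm10, plus strand, chr2:164960883-164961003, from the GENCODE M21 transcript).
Slc12a5 upstream first exon: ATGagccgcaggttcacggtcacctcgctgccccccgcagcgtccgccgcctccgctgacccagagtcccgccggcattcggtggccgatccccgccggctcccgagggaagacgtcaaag
The upstream exon contributes 121 coding bases, or 40 whole codons.

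Transcripts with the downstream first exon held 64.8% of Slc12a5 in replicate 1 and 66.8% in replicate 2 by alignment, a mean of 65.8 ± 1.46%. The FASTQ-based table gave 72.1% and 60.4%, a mean of 66.2 ± 8.24%. Transcripts with the upstream first exon held 26.6% in replicate 1 and 21.3% in replicate 2 by alignment, and 19.6% and 29.0% by the FASTQ-based table. The means of the upstream share were 24.0 ± 3.74% and 24.3 ± 6.64%. The grouped shares thus had like means in both quantifications, while the FASTQ-based shares spread more between libraries. The direction of the difference between libraries was opposite in the 2 quantifications. Among only the 3 transcripts with 25 or 26 exons, the downstream share was 64.0 ± 5.17% by alignment and 71.5 ± 6.52% by the FASTQ-based table. Another 10.2 ± 2.29% by alignment lay in 2 retained-intron transcripts with neither exon.

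The single transcripts depended on the quantification. Slc12a5-201, with the downstream exon and 1115 codons, led with 40.4% in replicate 1 and 44.6% in replicate 2 by alignment, and 61.4% and 53.4% by the FASTQ-based table. Slc12a5-208, a short form of 7 exons and 231 codons with the same first exon, held 24.2% and 21.6% by alignment and 9.71% and 4.79% by the FASTQ-based table. The 2 long upstream forms changed places. Slc12a5-207 held 23.1% in replicate 1 and 20.0% in replicate 2 by alignment but 0.556% and 7.29% by the FASTQ-based table. Slc12a5-209 held 3.51% and 1.36% by alignment but 18.7% and 19.2% by the FASTQ-based table. These forms share their first exon but differ at the 3′ end, where the last exon measures 2343 bases in Slc12a5-207 and 190 bases in Slc12a5-209.

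**Figure D5:**
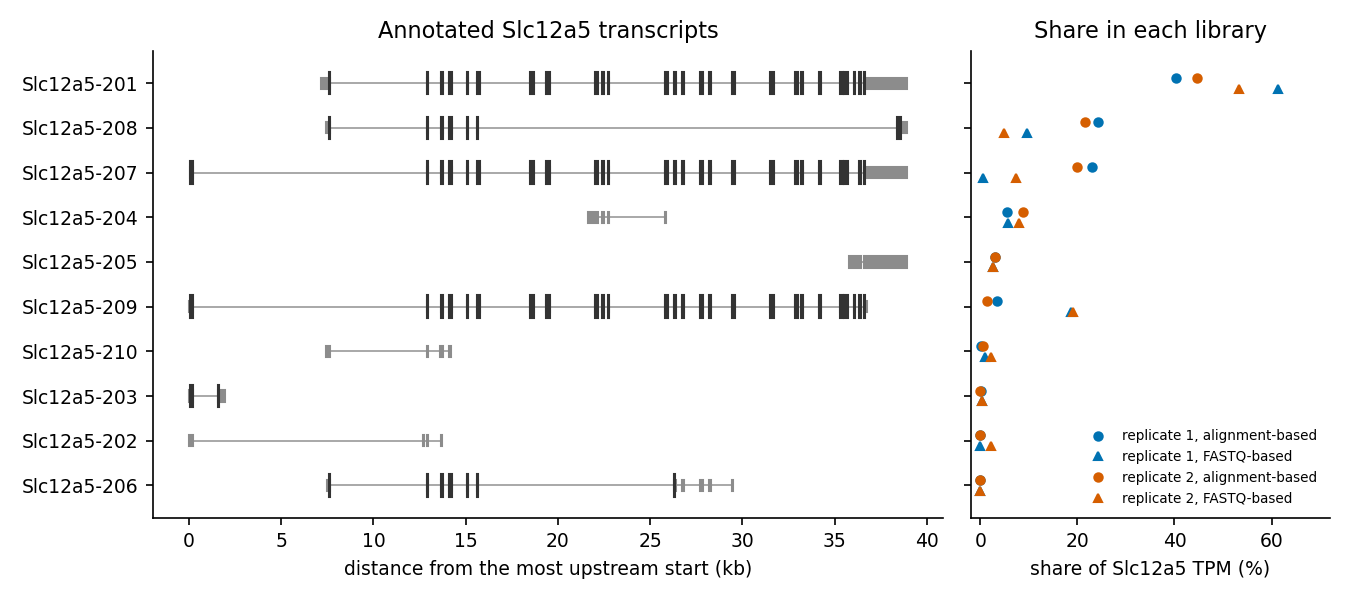
Left, the exons of the 10 annotated Slc12a5 transcripts by distance from the most upstream start in kilobases, with coding parts dark and tall. Right, the share of Slc12a5 TPM in each library (blue replicate 1, orange replicate 2, circles alignment-based, triangles FASTQ-based). Transcripts starting at the right of the pair of first exons, led by Slc12a5-201, hold 65.8% by alignment.

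Slc12a5-207 and Slc12a5-209 also differ by a 15-base exon (chr2:164996864-164996878), which adds 5 codons near the 3′ end of the coding sequence. It is shown in capitals with 30 coding bases on either side, as read from Slc12a5-201, and below it the same stretch of Slc12a5-207.
Slc12a5-201 with the exon: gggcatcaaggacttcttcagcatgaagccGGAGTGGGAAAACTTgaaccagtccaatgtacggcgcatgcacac
Slc12a5-207 without it: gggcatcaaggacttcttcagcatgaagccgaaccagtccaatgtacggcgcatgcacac
Of the 3 transcripts that span this place, those with the exon held 65.6% in replicate 1 and 69.7% in replicate 2 by alignment, and 99.3% and 90.9% by the FASTQ-based table. The share with the exon is therefore not settled by these tables, beyond being above 50% in each of them.

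The 2 first exons follow different upstream sequence. The bases before each annotated start are shown, from the RefSeq promoter windows (GRCm38.p6, plus strand, chr2:164960596-164960801 and chr2:164967738-164967982). Capitals mark matches to 5 motifs searched on both strands, namely the E-box CACGTG, the GC box GGGCGG, the EGR sites GCGTGGGCG and GCGGGGGCG, and the TATA box TATAAA.
Slc12a5 upstream promoter: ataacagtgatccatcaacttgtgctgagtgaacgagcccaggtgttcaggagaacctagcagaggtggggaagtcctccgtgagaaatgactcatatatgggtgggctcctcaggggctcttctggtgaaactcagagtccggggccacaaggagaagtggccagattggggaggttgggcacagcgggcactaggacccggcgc
Slc12a5 downstream promoter: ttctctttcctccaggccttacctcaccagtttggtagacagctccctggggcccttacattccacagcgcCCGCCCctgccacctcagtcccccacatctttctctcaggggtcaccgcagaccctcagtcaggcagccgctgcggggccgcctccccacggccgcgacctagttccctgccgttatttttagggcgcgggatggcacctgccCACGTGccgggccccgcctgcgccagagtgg
The downstream sequence holds 1 E-box and 1 GC box, which do not overlap, and the upstream sequence holds none of the motifs. Over 32851 RefSeq windows of 250 bases, 6.02% hold the E-box, 32.7% the GC box, 0.536% and 2.57% the EGR sites and 12.4% the TATA box. The downstream sequence is 66.5% G and C with 16 CG pairs in 245 bases, and the upstream one 57.3% with 6 CG pairs in 206 bases.

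Windows were found for 8 of the 9 genes, 10 in all, and not for Slc12a2. The 2 windows of Slc12a7 overlap. A GC box was present in 7 of the 10, covering 6 genes, where 32.7% of all windows hold one. An E-box was present in 2, against 6.02% of all windows, a TATA box in 1, that of Wnk3, and an EGR site in 0. The G and C content ran from 30.4% for Wnk3 to 82.4% for Stk39, where the median of all windows was 52.4%. Only the windows of Wnk2 and Wnk3 lay below that median. The windows were not matched on G and C content, so the motif counts are not a result about these genes. A match is a run of letters and does not show that a factor binds there.

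The remaining cotransporters used few coding forms. Slc12a2-201, of 1206 codons, held 95.5% of its gene in replicate 1 and 96.4% in replicate 2 by alignment, and 93.8% and 93.1% by the FASTQ-based table. For Slc12a4 the leading form was Slc12a4-202 by alignment, with 65.6% in replicate 1 and 82.6% in replicate 2. By the FASTQ-based table it was Slc12a4-201, with 57.9% and 49.5%. These forms have 1085 and 1087 codons and differ by 2 codons in length, and together they held 79.2 ± 4.76% by alignment and 96.3 ± 5.19% by the FASTQ-based table.

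Slc12a7 had too few reads for a stable division. Its full-length form Slc12a7-201 held 57.9% in replicate 1 and 38.4% in replicate 2 by alignment, from 96.0 and 106 counts. The retained-intron form Slc12a7-208 had 0% in replicate 1 and 28.8% in replicate 2 on 0 and 4.37 counts. Slc12a7-211, also with a retained intron, had 0% and 4.83% by alignment and 11.5% and 35.1% by the FASTQ-based table.

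Wnk1 was divided among 26 annotated transcripts. Wnk1-202, of 2377 codons, led with 25.9% in replicate 1 and 23.8% in replicate 2 by alignment, and 26.5% and 23.0% by the FASTQ-based table. The 5 full-length coding transcripts together held 35.2 ± 0.27% by alignment and 40.1 ± 0.29% by the FASTQ-based table. The 8 retained-intron transcripts held 29.4 ± 1.53% and 18.2 ± 1.71%. Among these Wnk1-208 differed most between the quantifications, with 15.4% in replicate 1 and 16.3% in replicate 2 by alignment but 2.85% and 3.37% by the FASTQ-based table. Wnk1-216, a short coding form of 5 exons, held 15.3% and 12.4% by alignment and 18.0% and 14.6% by the FASTQ-based table.

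Some Wnk1 exons are known for where they are used, and they are given here although their shares were seen first. A large exon of 1236 bases (chr6:119962397-119963632) follows the eighth exon in Wnk1-203. At that place lies the nervous-system exon known as HSN2, in which mutations cause a hereditary sensory neuropathy in humans. The transcripts with it held 13.8% of the full-length coding forms in replicate 1 and 18.0% in replicate 2 by alignment, and 17.6% and 21.2% by the FASTQ-based table. The single-exon transcript Wnk1-218 covers the same stretch and held 3.29% and 3.94% of the whole gene by alignment.

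An internal first exon of Wnk1 (chr6:119981118-119981448) starts Wnk1-201 after the fourth exon of the long form. A first exon at that place is known to give the kidney form without a full kinase domain. Wnk1-201 had 0.64 TPM in replicate 1 and 0.77 TPM in replicate 2 by alignment, 0.869 ± 0.05% of the gene, and was listed at 0 in both libraries by the FASTQ-based table. Its level was thus below 1 TPM in both tables.

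Wnk2 was read almost wholly into coding transcripts, 98.3 ± 2.47% by alignment. Wnk2-205, of 2149 codons, led with 42.4% in replicate 1 and 40.0% in replicate 2 by alignment, and 27.9% and 28.5% by the FASTQ-based table. Wnk2-206, a form of 10 exons and 708 codons, held 22.9% and 21.3% by alignment and 19.3% and 18.7% by the FASTQ-based table. The shorter form was thus a stable part of the gene in each table. Its last exon (chr13:49037609-49039203) lies near the distal end of the gene, where that of Wnk2-205 is at chr13:49036303-49036505.

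Other long Wnk2 forms were less stable. Wnk2-202 held 12.6% in replicate 1 and 19.8% in replicate 2 by alignment, and 8.10% and 7.79% by the FASTQ-based table. Wnk2-211 held 0.03% and 7.91% by alignment, and 14.8% and 12.4% by the FASTQ-based table. Wnk2-207 held 0.98% and 0% by alignment, and 8.92% and 11.2% by the FASTQ-based table. Of the TPM in coding Wnk2 transcripts, forms that end at the most distal last exon held 71.8% in replicate 1 and 72.1% in replicate 2 by alignment. The FASTQ-based table gave 71.1% and 69.0%. These are shares of the coding transcripts and not of the whole gene, so their spread is not set against that of the single forms.

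Wnk3 was led by a transcript annotated as non-coding. Wnk3-203, a processed transcript of 5 exons, held 41.0% in replicate 1 and 42.5% in replicate 2 by alignment, and 39.2% and 41.1% by the FASTQ-based table. Its last exon measures 5354 bases, where that of the coding Wnk3-206 measures 388 bases from the same start. Wnk3-206, of 1710 codons, held 40.9% and 33.9% by alignment and 43.4% and 36.3% by the FASTQ-based table. In the FASTQ-based table the leader differed between libraries, Wnk3-206 in replicate 1 and Wnk3-203 in replicate 2. Only 58.3 ± 1.05% of the gene lay in coding transcripts, where the median gene had 85.6%.

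The coding forms of Wnk3 differ by an exon that can be extended by 141 bases, or 47 codons, as in Wnk3-205. The extension is shown because it is the coding difference between the main forms (mm10 chrX:151293901-151294041, plus strand, from the GENCODE M21 transcript).
Wnk3-205 extension: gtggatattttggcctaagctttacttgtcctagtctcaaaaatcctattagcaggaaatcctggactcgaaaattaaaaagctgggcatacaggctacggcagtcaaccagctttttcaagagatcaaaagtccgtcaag
Full-length coding forms with the extension held 30.7% of such forms in replicate 1 and 41.1% in replicate 2 by alignment, and 28.7% and 38.4% by the FASTQ-based table. Wnk3-205 itself held 18.1% and 23.6% of the gene by alignment, and 12.3% and 18.4% by the FASTQ-based table. The form without the extension was the more abundant one in both libraries.

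Stk39 and Oxsr1 each had 1 main coding form. Stk39-201, of 556 codons, held 79.5% in replicate 1 and 72.9% in replicate 2 by alignment, and 70.0% and 58.8% by the FASTQ-based table. The retained-intron form Stk39-202, which ends in the intron after its 16 exons, held 17.2% and 21.1% by alignment and 19.0% and 20.8% by the FASTQ-based table. A short processed transcript, Stk39-208, held 1.17% and 3.98% by alignment but 11.0% and 11.6% by the FASTQ-based table.

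For Oxsr1 the coding form Oxsr1-201, of 527 codons, held 81.1% in replicate 1 and 81.9% in replicate 2 by alignment, and 72.4% and 79.0% by the FASTQ-based table. The retained-intron form Oxsr1-203 held 15.9 ± 1.32% by alignment and 14.9 ± 0.71% by the FASTQ-based table. The coding share was below the 85.6% of the median gene for 6 of the 9 genes by alignment, namely Slc12a4, Slc12a7, Wnk1, Wnk3, Stk39 and Oxsr1. By the FASTQ-based table the median gene had 83.1%. Slc12a4 was above it there at 96.3%, and the others named were below it. A median has as many genes below it as above, so 6 of 9 is not read as a result about this set. In total RNA, which includes unspliced transcripts, retained-intron forms and nuclear precursors share sequence, and the tables do not separate them.

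Annotated neighbours that overlap the 9 genes had few reads. The pseudogene Gm16199, on the opposite strand within Wnk1, had 46.7 counts in replicate 1 and 53.4 in replicate 2. The antisense RNA A230072E10Rik at Wnk3 had 21 counts in each library, and Gm16156 at Slc12a4 had 1 in each. The use of strand in counting is not given in the sources used here, so reads of these antisense neighbours and of the genes cannot be told apart.

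Genes that act on WNK kinases and SPAK were all present (8 of 8 detected, where 58.7% of protein-coding genes were, with a median of 44.9 TPM). The most abundant were Nedd4l, a ubiquitin ligase that acts on WNK1, with 80.5 TPM in replicate 1 and 86.6 TPM in replicate 2, and Klhl2, an adaptor that brings WNK kinases to the ubiquitin ligase scaffold Cul3, with 76.4 and 86.8 TPM. Cab39, which encodes the SPAK and OSR1 activator MO25, had 68.0 and 61.5 TPM. The remaining WNK kinase, Wnk4, known from kidney, was the lowest at 3.43 TPM in replicate 1 and 2.01 TPM in replicate 2, below each of the WNK kinases described above. None of the 8 differed 2-fold between the libraries, where 0.256% of 11721 genes did. Wnk4 passed 1.5-fold, as 1.52% of those genes did, with a ratio of replicate 1 to replicate 2 of 1.66 on 203 and 109 counts.

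Genes whose products bind or regulate KCC2 were also all detected (6 of 6 against the same 58.7%, with a median of 49.7 TPM). Ckb, the brain creatine kinase that binds KCC2, had 754 TPM in replicate 1 and 759 TPM in replicate 2. Epb41l1, which links KCC2 to the actin cytoskeleton, had 161 and 169 TPM. The guanine exchange factor Arhgef7, which binds KCC2 in spines, had 59.7 and 67.9 TPM. Egr4, an early growth response factor reported to act on the rodent Slc12a5 promoter, had 23.7 TPM in replicate 1 and 14.5 TPM in replicate 2. None of the 6 differed 2-fold between the libraries, where 0.256% of 11721 genes did. Egr4 passed 1.5-fold, as 1.52% of those genes did, with 32.9 CPM in replicate 1 and 18.9 CPM in replicate 2, a ratio of 1.74. The part of Egr4 in the level of Slc12a5 was not tested.

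Of 4 other genes of the SLC12 family, 1 was detected by alignment, where 58.7% of protein-coding genes were. This was Slc12a9, with 10.1 TPM in replicate 1 and 13.2 TPM in replicate 2. By alignment the kidney sodium-coupled importers Slc12a1 and Slc12a3 were below 1 TPM, with 2 and 11 counts in each library, as was Slc12a8. The FASTQ-based table gave Slc12a3 1.09 TPM in replicate 1 and 1.10 TPM in replicate 2, and Slc12a8 0.924 and 1.71 TPM. Slc12a2 was thus the only sodium-coupled importer of chloride in the family above 1 TPM by alignment, but not by the FASTQ-based table.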

How the data were processed

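Total RNA of 2 cortex libraries was analysed from tables that the authors made on assembly mm10 with GENCODE annotation M21, per the deposited description of the files. Those tables came from an aligner and quantifiers not given in the sources used here, by name or version. The alignment-based tables hold expected counts and TPM per gene and transcript, per the file headers. They also hold, per the file headers, each transcript's percent of its gene. The deposited FASTQ-based tables hold estimated counts and TPM for transcripts, and both were summed per gene. The authors scaled TPM over all entries, spike-ins included. Another 26248 entries carry only a number, and stayed out. Their share of expected counts was 6.39e-06% for replicate 1 and 1.81e-05% for replicate 2.

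The genes, related lists and thresholds were chosen with earlier results of these data known. Ratios of gene TPM were taken within each library, with no pseudocount, as mean ± SD of log2 values. Counts were compared between libraries as CPM with TMM factors (edgeR 4.0.16), with exact binomial 95% intervals of the count ratio (scipy 1.17.1). A gene differed if it changed 2-fold at a mean of at least 5 CPM. With 1 library an animal there is no test. If the shared donor identifier means 1 animal, the spread is technical. Alternatives were DESeq2 1.42.0 size factors, plain totals, ERCC totals, no filter, 1.5-fold, the FASTQ-based tables, counts in place of TPM, a pseudocount of 1 TPM, coding transcripts only, a TPM of at least 5 and leaving out each library.

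Transcripts are named if they led or held at least 10% of the gene in either quantification. Groups of transcripts by exon were added after seeing the data. Promoter windows are from RefSeq (GRCm38.p6), and other sequences from GENCODE M21 transcripts. Identity is over aligned bases of a global alignment of coding sequences. Of each related list, the most abundant genes and those below 1 TPM are named. Choroid plexus and striatal markers, and Egr4 and Wnk4, were named after their values were seen. Some related genes and 1 sequence are not reported here, and list counts and sums leave those genes out.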

Additional observations from a re-analysis of the deposited data

How the results depend on the processing

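The exporter over importer log2 ratio stayed positive in each alternative. It was 3.17 by expected counts not corrected for length, and 3.22 for the summed exporters by counts. Leaving out each library gave 3.56 to 3.97 for Slc12a5 over Slc12a2 and 3.64 to 4.04 for the summed exporters. The number of genes detected was 9 without either library and 8 at a TPM of at least 5. The number with the same leading transcript in both quantifications was 7 to 8 without a library, and with a transcript of at least 50% it was 4 to 5.

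None of the genes differed 2-fold under the 6 alternatives for the comparison of libraries. Under ERCC totals Slc12a4 changed sign, to 0.02, with the median of all genes at 0.11. No other gene changed sign under the scalings tried or the FASTQ-based counts. Shares of single transcripts moved with the quantification, among them those of Slc12a5, Slc12a4, Slc12a7, Wnk1-208 and Wnk2-205, and the cause was not tested. A sum with 1 more exporter is not reported here. No paired analysis was possible because the libraries form 1 group. Depth limits Slc12a7, with 121 and 137 counts, and its transcripts.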

Other observations

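Other routes for chloride and bicarbonate were present in both libraries. Of 9 bicarbonate and chloride exchangers and carbonic anhydrases, 9 were detected, with a median of 35.8 TPM, where 58.7% of all protein-coding genes were detected. Slc4a10, a sodium-driven bicarbonate transporter of neurons, had 90.6 TPM in replicate 1 and 105 TPM in replicate 2. The chloride-bicarbonate exchanger Slc4a3 had 78.6 TPM and 77.1 TPM. Car7, the neuronal carbonic anhydrase, had 12.6 TPM in replicate 1 and 16.2 TPM in replicate 2. None of these genes differed 2-fold between the libraries, where 0.256% of 11721 genes did.

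Of 12 chloride channel genes, 11 were detected, where 58.7% of all protein-coding genes were, with a median of 24.5 TPM. The endosomal exchangers Clcn4 and Clcn3 were the most abundant, with 60.3 TPM and 56.7 TPM in replicate 1 and 63.3 TPM and 59.2 TPM in replicate 2. Lrrc8b, a subunit of the volume-regulated anion channel, had 41.7 TPM in replicate 1 and 46.7 TPM in replicate 2, and Lrrc8a, the subunit that channel requires, had 26.1 and 25.2 TPM. Lrrc8e was below 1 TPM, with 0 and 2 counts. All were below the exporter Slc12a5.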
